A study of Macaca fascicularis with 6 samples.

Results

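The kinesin genes of the cynomolgus monkey (Macaca fascicularis) were followed from the immature to the mature oocyte. The genes were taken by name, as every row of the deposited gene count table that begins with KIF and a digit or with KIFC, which gave 41 of 28164 rows. Of these rows, 40 are motor genes. KIF1BP was picked by its name alone, codes for a kinesin-binding protein without a motor and is kept apart from the motors below. GV oocytes are immature and still hold their germinal vesicle, the nucleus arrested in prophase of meiosis. IVM MII oocytes had matured in culture up to metaphase of meiosis II, and IVO MII oocytes had reached the same stage inside the animal. There were 2 libraries in each of the 3 groups, and in the labels all oocytes are wild type, stripped of the cells around them and untreated. The ages of the animals, how many oocytes or animals went into a library and the culture conditions were not given in the sources used here. Reverse transcription started from the poly(A) tails and the full-length cDNA was amplified, so a level here is a share of the poly(A)-primed RNA of a library.

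Kinesins are proteins that use ATP to walk along microtubules or to take microtubule ends apart. Some of them build the spindle, line up the chromosomes on it and divide the cell, others carry organelles, vesicles and RNA, and others serve cilia. Oocytes of mammals build the meiotic spindle without centrioles and then place it under the cell surface, so that the polar body takes little cytoplasm. Sorting and sliding of microtubules by motors is part of how such a spindle becomes bipolar. A fully grown oocyte makes little new RNA and draws on stored transcripts whose poly(A) tails lengthen or shorten as it matures.

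The libraries held 27707021 to 35515139 counts, and the 41 rows took 0.144% and 0.115% of the counts in GV, 0.29% and 0.25% in IVM MII, with 0.371% and 0.321% in IVO MII. All 18 oocyte marker genes with a row, such as GDF9 and ZP3, were well detected, with a summed level of 24844 to 52998 CPM (counts scaled to library size with TMM factors). The 22 marker genes of cumulus and granulosa cells summed to 36.2 to 41.6 CPM in GV, 86.8 to 88.9 in IVM MII and 37.8 to 54.2 in IVO MII, with INHA, FOXL2, PTX3 and STAR at 0 in every library. Of the 7 of them that were tested, 3 were called higher in IVM MII than in IVO MII, and 3 higher and 1 lower than in GV. No count was found for 12 of the 22 in IVM MII, against 5 in GV and 6 in IVO MII. GREM1, a cumulus gene, was at 5.11 and 2.84 CPM in GV, 32.8 and 25.3 in IVM MII, with 4.83 and 3.19 in IVO MII, and HAS2 at 5.07 and 4.90, 20.3 and 17.1, and 12.7 and 31.6. Others were lower in IVM MII than in GV. CYP19A1 had 9 and 30 counts in GV, 0 and 4 in IVM MII, with 17 and 3 in IVO MII, and KRT18 had 7 and 18, 2 and 3, and 0 and 1. The 15 markers of theca, stroma and endothelium summed to 332 to 391 CPM in GV, 156 to 163 in IVM MII and 91.1 to 95.6 in IVO MII, of which VWF alone made up 288 and 337, 105 and 102, and 41.8 and 46.0. Blood and immune markers summed to at most 13.7 CPM in any library and the 4 sperm markers to at most 0.0852. The part of these other markers in the results was not tested, and in bulk libraries fewer oocytes and less RNA per oocyte cannot be told apart. Levels are in CPM unless stated otherwise, a value pair gives replicate 1 first, and means carry the SD of n = 2 libraries.

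Most motors with a measurable change were higher in mature than in immature oocytes. Of the 41 rows, 32 had enough counts to be tested, 31 of them motors. A call is an adjusted p under 0.05 in edgeR's quasi-likelihood test over all genes. Between IVM MII and GV, 16 of the 31 motors rose and 2 fell, where 50.3% of all 15815 genes tested were called, 25.6% as higher and 24.7% as lower. Without GV replicate 2, or without IVM MII replicate 2, 10 motors rose, and with a filter of 10 CPM 9 of 21 tested. The median log2 fold change was 0.76 over these motors and 0.06 over all genes. Both IVM MII libraries were above both GV libraries for 23 of the motors and below for 3, against 40.4% and 37.4% of all genes, so that 77.8% of all genes had no overlap. Between IVO MII and GV, 18 motors rose and 4 fell, where 58.5% of all genes were called, 28.1% as higher and 30.5% as lower. The medians were 0.88 over the motors and -0.07 over all genes. Both IVO MII libraries were above GV for 20 motors and below for 5, against 38.2% and 42.1% of all genes, or 80.2% without overlap. Both MII groups were set against the same 2 GV libraries, so these counts are not independent of each other.

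Mature oocytes from culture and from the animal differed in fewer motors, and most often with the lower level after culture. Of the 31 motors, 3 were higher in IVM MII than in IVO MII (KIF3C, KIF9 and KIF26B) and 8 were lower (KIF1A, KIF5B, KIF14, KIF15, KIF18A, KIF18B, KIF20B and KIF27), where 24.6% of all genes were called, 14.3% as higher and 10.3% as lower. The median log2 difference was -0.38 over the motors and 0.02 over all genes. Both IVM MII libraries lay above both of IVO MII for 7 motors and below for 16, against 33.1% and 29.9% of all genes, or 63.0% without overlap. With KIF1BP, which was also higher, 12 of the 32 rows were called. This count rests on single libraries. Most of the 12 calls were lost without IVM MII replicate 1, IVM MII replicate 2 or IVO MII replicate 1. Fewer of all genes were called in those fits too. The median over the motors was then -0.32, -0.30 and -0.26, with KIF21A also tested. With plain library totals as the scale, 5 rows were higher and 4 lower in place of 4 and 8. The plot of fold changes by gene shows the 3 comparisons side by side.

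**Figure D1:**
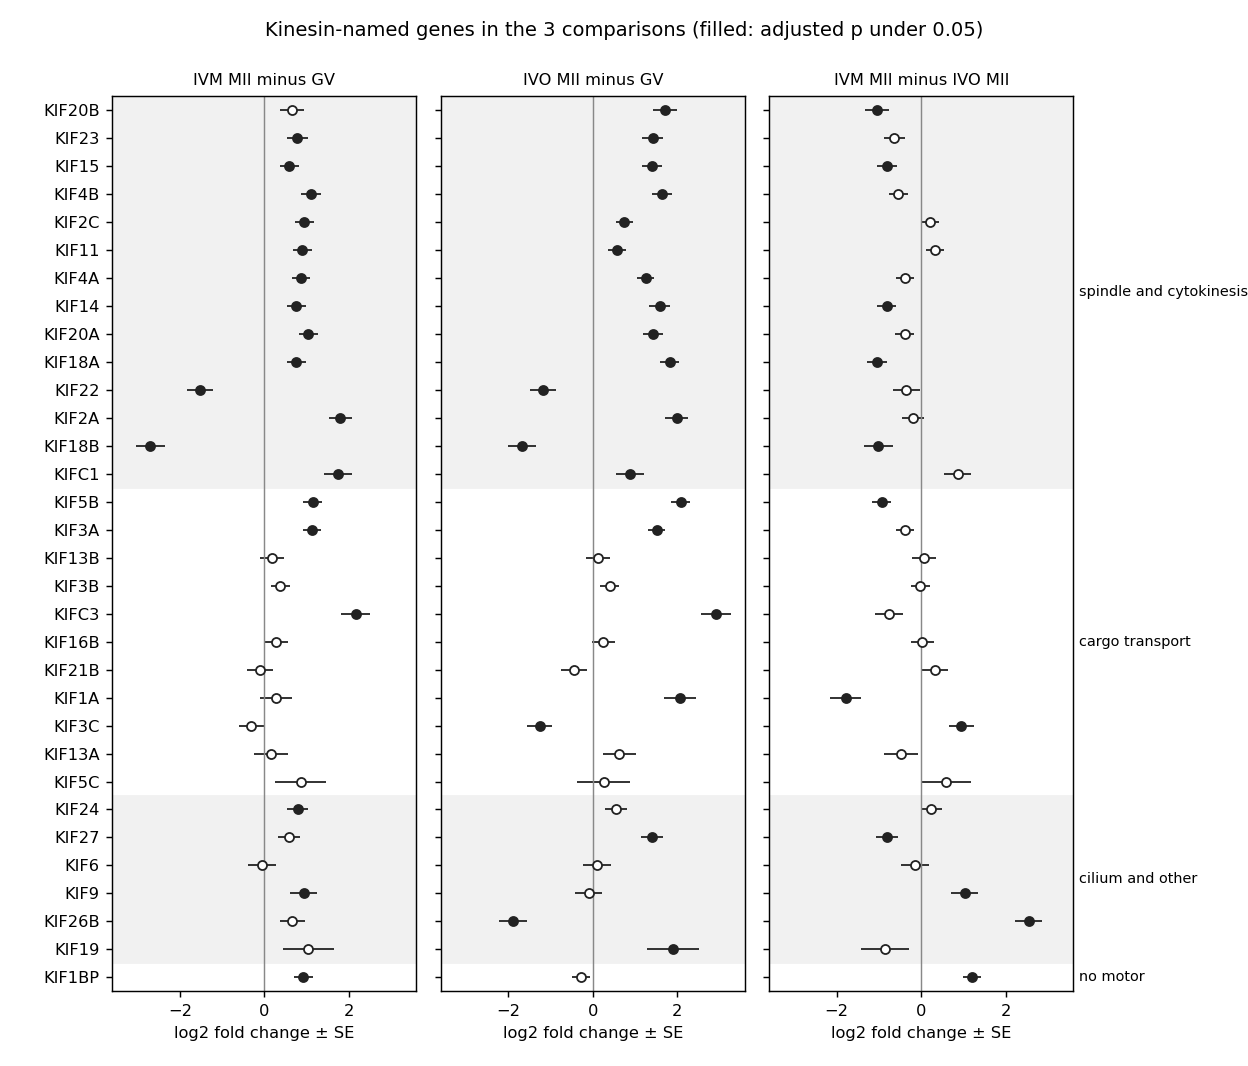
Log2 fold change with its standard error for the 32 kinesin-named genes tested, in 3 comparisons, ordered by class and level. Filled points passed an adjusted p of 0.05: the spindle motors lie to the right of 0 in both comparisons with GV except KIF22 and KIF18B, and none of the filled spindle motors lies to the right of 0 in IVM MII minus IVO MII.

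The motors were placed in 3 classes by their textbook roles. KIF4A and KIF4B count as 2 spindle motors, though the split of reads between their rows is uncertain, as described below. Of all genes tested, 25.6% rose and 24.7% fell from GV to IVM MII (median log2 fold change 0.06). From GV to IVO MII 28.1% rose and 30.5% fell (median -0.07). In IVM MII 14.3% were higher and 10.3% lower than in IVO MII (median 0.02). Of the 15 spindle and cytokinesis motors, 14 were tested, of which 11 rose and 2 fell from GV to IVM MII (median log2 fold change 0.83) and 12 rose and 2 fell from GV to IVO MII (median 1.41). The count of 11 was 6 without GV replicate 2 and 7 without IVM MII replicate 2. None of the 14 was called higher and 5 were called lower in IVM MII than in IVO MII (median -0.46), a count that was 1, 0 and 1 without IVM MII replicate 1, IVM MII replicate 2 and IVO MII replicate 1, and 2 with library totals, where 1 motor, KIFC1, was called higher. At an unadjusted p under 0.05, KIFC1 was also the 1 spindle motor higher in IVM MII, and DESeq2 and limma-voom called none. Of the 16 cargo motors, 11 were tested, and 3 rose and none fell in IVM MII (median 0.28), nor at an unadjusted p under 0.05, in DESeq2 or in limma-voom, though 1 (KIF5A) fell with no low-count filter, while 4 rose and 1 fell in IVO MII (median 0.40). Of the 9 motors of cilia and other roles, 6 were tested, with 2 higher and none lower in IVM MII (median 0.72), none lower by the unadjusted p, DESeq2 or limma-voom either, and 2 higher and 1 lower in IVO MII (median 0.32). The count of 2 in IVM MII was 4 with library totals, 1 without GV replicate 1 or 2 and 0 without IVM MII replicate 1 or 2 and with the 10 CPM filter. In IVO MII it was 1 without GV replicate 1 and with that filter, where the median was -0.11. Within the GV group, replicate 1 was above replicate 2 in 12 of the 14 spindle motors, with a median log2 ratio of 0.33 against 0.00 over all genes. In IVO MII replicate 1 was above replicate 2 in 11 of the 14 (median 0.19 against -0.01), and in IVM MII in 9 of the 14 (median 0.03 against -0.03).

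**Figure D2:**
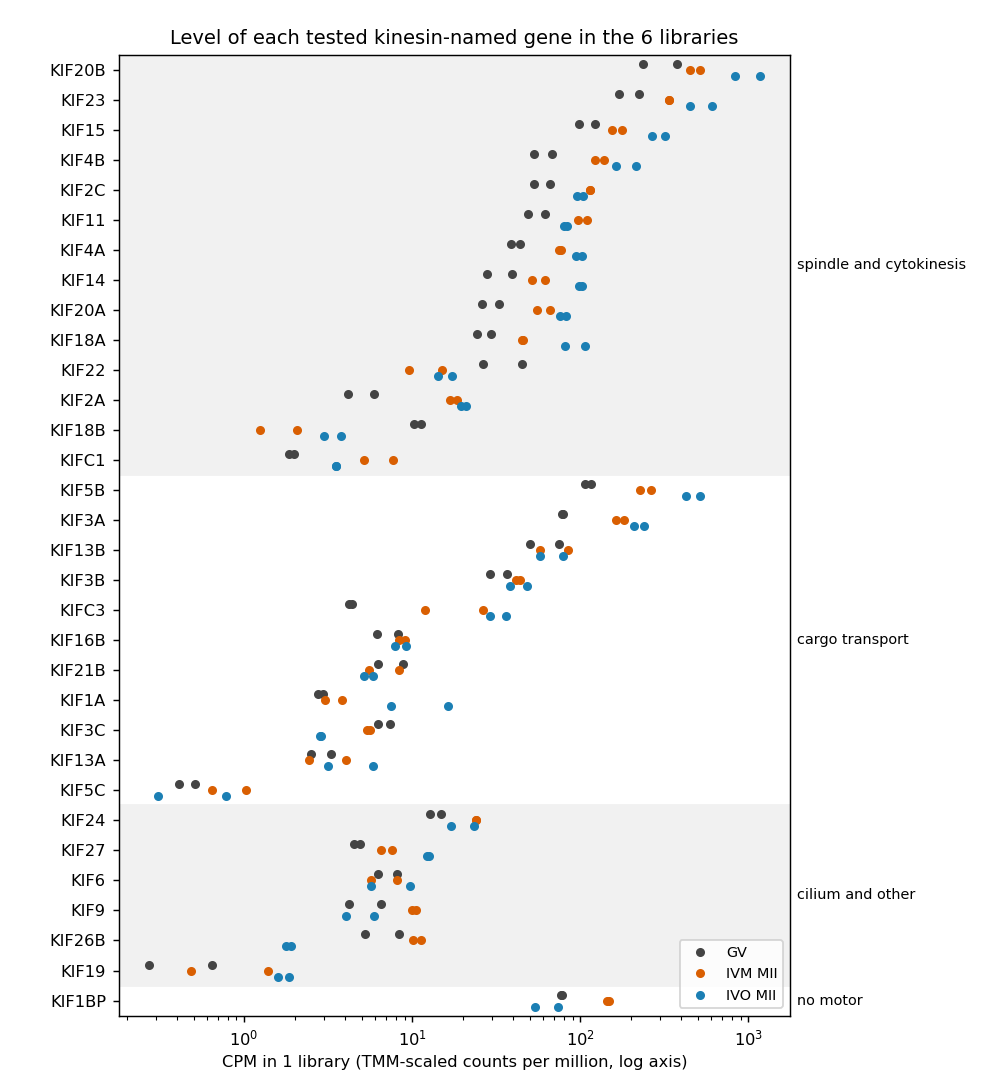
Level of each of the 32 tested genes in the 6 libraries, 1 point a library, in CPM on a log axis and ordered within each class by mean level. KIF20B, KIF23, KIF15 and KIF5B show 3 steps from GV over IVM MII to IVO MII, whereas the groups of KIF13B, KIF13A and KIF6 overlap one another.

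The central spindle is the bundle of antiparallel microtubules where the cell divides. For the motors of this bundle and of cytokinesis given next, every MII library was above both GV libraries, though KIF20B was not called in IVM MII. KIF23 (chromosome 7, 47172510 to 47207067 on macFas5) is the motor of centralspindlin, which it forms with RACGAP1. Its level was 224 and 169 in GV, 339 and 336 in IVM MII, with 604 and 448 in IVO MII. All 4 MII libraries were above both GV libraries, and both IVO MII libraries were above both of IVM MII. The log2 fold change was 0.78 ± 0.25 (SE) in IVM MII (adjusted p = 0.0201) and 1.42 ± 0.25 in IVO MII (adjusted p = 4.88e-04), and the 2 MII groups differed by -0.64 ± 0.25 without passing the test (adjusted p = 0.0772). The call in IVM MII was lost without GV replicate 2 (0.60), IVM MII replicate 1 (0.81) or IVM MII replicate 2 (0.80), and with a filter of 10 CPM (0.50), and DESeq2 called the difference between the MII groups (-0.71, adjusted p = 0.0263).

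KIF20A, also known as MKLP2, brings the chromosomal passenger complex to the central spindle. It was measured at 32.9 and 26.0 in GV, 65.8 and 55.0 in IVM MII, with 75.6 and 82.6 in IVO MII, 3 separate ranges. It rose by 1.04 ± 0.23 on the log2 scale in IVM MII (adjusted p = 0.00271) and by 1.43 ± 0.23 in IVO MII (adjusted p = 2.54e-04). KIF20B (chromosome 9, 88241061 to 88311146) is its close relative and acts late in cytokinesis. It was measured at 375 and 237 in GV, 452 and 517 in IVM MII, with 1170.5 and 836 in IVO MII, again in 3 ranges that did not overlap. In IVO MII it was 3.28-fold above GV (log2 1.71 ± 0.29, adjusted p = 3.72e-04), while 0.66 ± 0.28 in IVM MII missed the test (adjusted p = 0.0691), though it passed without GV replicate 1 (1.04), without IVO MII replicate 1 or 2 (0.68 each), with library totals (0.94), with no low-count filter (0.69) and with limma-voom (0.70). The level in IVM MII was below that in IVO MII by -1.05 ± 0.28 (adjusted p = 0.0193), a call lost without IVM MII replicate 1 (-0.93) or 2 (-1.15) or without IVO MII replicate 1 (-0.79).

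KIF14 is a motor of the midbody, the last bridge between dividing cells, where it works with citron kinase. Its levels were 39.2 and 27.9 in GV, 51.9 and 61.8 in IVM MII, with 103 and 97.9 in IVO MII, with no overlap of groups. The gene rose in IVO MII (1.58 ± 0.24, adjusted p = 1.71e-04) and in IVM MII (0.76 ± 0.23, adjusted p = 0.0175), and was lower in IVM MII than in IVO MII (-0.82 ± 0.23, adjusted p = 0.0243). The IVM MII to GV call was lost without GV replicate 2 (0.54) or IVM MII replicate 2 (0.65) and with the 10 CPM filter (0.49). That between the MII groups was lost without IVM MII replicate 1 (-0.67) or 2 (-0.94) or without IVO MII replicate 1 (-0.78) and with library totals (-0.61).

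KIF4A (chromosome X, 67322525 to 67462377) is a chromokinesin that binds PRC1 and sets the length of the central spindle. It stood at 44.0 and 38.6 in GV, 76.8 and 74.3 in IVM MII, with 103 and 93.8 in IVO MII. The row KIF4B (chromosome 6, 154372562 to 154377393) is a near copy without introns, counted as 1 exon block, and stood at 68.0 and 52.9, 122 and 138, and 214 and 164. Both rows kept the 3 groups apart. KIF4A rose by 0.87 ± 0.21 and 1.25 ± 0.21 (adjusted p = 0.00479 and 3.62e-04 for IVM MII and IVO MII), and KIF4B by 1.11 ± 0.24 and 1.64 ± 0.24 (adjusted p = 0.00239 and 1.35e-04). Because Bowtie2, the aligner in the processing notes, does not split a read over an intron, reads of KIF4A messages that cross exon junctions can only match whole in the intronless copy, so the split between these 2 rows is uncertain. A further 4.24% of the exonic bases of KIF4A overlap PDZD11, which the counting without strand could not separate.

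The motors that set up the bipolar spindle also rose, with unequal steps. KIF11 (chromosome 9, 91077419 to 91146714), known as Eg5, slides antiparallel microtubules apart and pushes the poles outward. It was found at 61.7 and 49.0 in GV, 109 and 97.1 in IVM MII, with 83.9 and 80.3 in IVO MII, so that the 2 IVM MII libraries were the highest of the 6. The rise was 0.90 ± 0.22 in IVM MII (adjusted p = 0.00509) and 0.57 ± 0.22 in IVO MII (adjusted p = 0.0398), and the MII groups differed by 0.33 ± 0.22 without passing the test (adjusted p = 0.286). The IVO MII call was lost without any 1 of 5 libraries (GV replicate 2, 0.41; IVM MII replicates 1 and 2, 0.58 each; IVO MII replicates 1 and 2, 0.55 and 0.61), with the 10 CPM filter (0.24), with a correction for gene length (0.48) and with the 4 compared libraries alone (0.56). The call in IVM MII was lost without GV replicate 2 (0.75).

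KIF15 (chromosome 2, 99749775 to 99847628) binds TPX2 and can take over from KIF11 in holding the poles apart. It was measured at 123 and 98.6 in GV, 177 and 155 in IVM MII, with 317 and 267 in IVO MII. These 3 ranges were separate, with the largest step between IVM MII and IVO MII. KIF15 was 2.63-fold higher in IVO MII than in GV (1.40 ± 0.23, adjusted p = 3.05e-04) and lower in IVM MII than in IVO MII (-0.81 ± 0.23, adjusted p = 0.0221). Its rise in IVM MII (0.59 ± 0.23, adjusted p = 0.0473) lay close to the threshold and was lost without GV replicate 1 (0.76), GV replicate 2 (0.44), IVM MII replicate 1 (0.52) or IVM MII replicate 2 (0.69), and in 5 of the other settings (0.31 to 0.53). The call between the MII groups was lost without IVM MII replicate 1 (-0.88) or 2 (-0.71) or without IVO MII replicate 1 (-0.68) and with library totals (-0.58).

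KIFC1, a minus-end motor that focuses spindle poles, was low, at 1.97 and 1.86 in GV, 7.64 and 5.17 in IVM MII, with 3.52 and 3.53 in IVO MII. Both IVM MII libraries were the highest. The level rose 3.34-fold in IVM MII (1.74 ± 0.34, adjusted p = 0.00138) and 1.84-fold in IVO MII (0.88 ± 0.34, adjusted p = 0.0423). The IVO MII call was lost without GV replicate 1 (0.93), GV replicate 2 (0.84), IVO MII replicate 1 (0.89) or IVO MII replicate 2 (0.89), with limma-voom (0.87) and with no low-count filter (0.89). IVM MII lay above IVO MII by 0.86 ± 0.33, which missed the test (adjusted p = 0.0727) and passed it with library totals (1.10).

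KIF2A and KIF2C, of the kinesin-13 family, do not walk but take tubulin off microtubule ends, KIF2A at the poles and KIF2C (also MCAK) at centromeres, where it frees wrong attachments. KIF2C was found at 52.8 and 66.0 in GV, 115 and 114 in IVM MII, with 104 and 96.2 in IVO MII, and KIF2A at 5.96 and 4.16, 16.8 and 18.4, and 19.4 and 20.8. In both genes all MII libraries were above both GV libraries. KIF2A rose 3.47-fold in IVM MII (1.80 ± 0.27, adjusted p = 2.68e-04) and 3.96-fold in IVO MII (1.99 ± 0.27, adjusted p = 8.89e-05), and 3.65% of its exonic bases overlap DIMT1. KIF2C rose by 0.95 ± 0.22 (adjusted p = 0.00349) and 0.75 ± 0.21 (adjusted p = 0.00992), and its IVO MII call was lost without GV replicate 1 (0.61) and with the 10 CPM filter (0.42). Neither gene passed the test between the MII groups (-0.19 ± 0.26 for KIF2A and 0.20 ± 0.21 for KIF2C, adjusted p = 0.619 and 0.535). KIF2B, the third member of the family, had no count in any library, which allows up to 3 counts per library, or 0.0695 to 0.116 CPM, counting error only.

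KIF18A and KIF18B, both of the kinesin-8 family, moved in opposite directions from GV. KIF18A (chromosome 14, 39377446 to 39462495) walks to the plus ends of kinetochore microtubules and dampens the swings of chromosomes at the metaphase plate. KIF18B (chromosome 16, 56736612 to 56759858) shortens astral microtubules together with KIF2C. KIF18A stood at 29.5 and 24.2 in GV, 45.3 and 45.8 in IVM MII, with 107 and 81.6 in IVO MII, and KIF18B at 11.3 and 10.3, 2.06 and 1.25, and 3.79 and 2.99. No groups overlapped in either gene: KIF18A was lowest in GV and highest in IVO MII, and KIF18B was highest in GV and lowest in IVM MII.

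From GV to IVO MII, KIF18A rose 3.52-fold (1.82 ± 0.23, adjusted p = 6.29e-05) and KIF18B fell 3.19-fold (-1.67 ± 0.33, adjusted p = 0.00107). From GV to IVM MII, KIF18A rose by 0.76 ± 0.23 (adjusted p = 0.0158) and KIF18B fell 6.48-fold (-2.70 ± 0.34, adjusted p = 9.31e-05). Both were lower in IVM MII than in IVO MII, KIF18A by -1.05 ± 0.23 (adjusted p = 0.00652) and KIF18B by -1.02 ± 0.34 (adjusted p = 0.0461). The KIF18A rise in IVM MII was lost without GV replicate 2 (0.63) or IVM MII replicate 2 (0.77) and with the 10 CPM filter (0.49), and its call between the MII groups without IVM MII replicate 1 (-1.01) or 2 (-1.06). The KIF18B call between the MII groups was lost without GV replicate 1 or 2 (-1.02 each), IVM MII replicate 2 (-0.71) or without IVO MII replicate 1 (-0.84), with limma-voom (-1.04), with library totals (-0.78) and with the 4 compared libraries (-0.99).

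KIF22 was the other spindle motor that fell. It is a chromokinesin, also called Kid, that pushes chromosome arms away from the poles. Its levels were 26.4 and 44.8 in GV, 15.1 and 9.63 in IVM MII, with 17.3 and 14.3 in IVO MII, so the 2 GV libraries were the highest and the MII groups overlapped. The log2 fold change was -1.52 ± 0.31 in IVM MII (adjusted p = 0.00191) and -1.17 ± 0.31 in IVO MII (adjusted p = 0.00651). The latter call was lost without GV replicate 2 (-0.74), the library with the highest level.

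Of the cargo motors, KIF5B (chromosome 9, 32597570 to 32645542), the heavy chain of conventional kinesin in most tissues, changed in all 3 comparisons. It carries mitochondria, vesicles and RNA particles. It was found at 116 and 106 in GV, 263 and 226 in IVM MII, with 514 and 426 in IVO MII, and the 3 ranges were far apart. The rise from GV was 2.20-fold in IVM MII (1.14 ± 0.23, adjusted p = 0.00159) and 4.23-fold in IVO MII (2.08 ± 0.23, adjusted p = 2.53e-05), and IVM MII was below IVO MII by -0.94 ± 0.22 (adjusted p = 0.0104). This last call was lost without IVM MII replicate 2 (-0.83) or without IVO MII replicate 1 (-0.80). Its paralogs of nerve cells were near the limit of detection: KIF5C had 0.309 to 1.02 CPM over the 6 libraries and passed no test, and KIF5A had at most 8 counts in any library.

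The 3 motor chains of kinesin-2 did not move together. KIF3A (chromosome 6, 131663957 to 131727698) pairs with KIF3B or KIF3C, and the pair of KIF3A and KIF3B with the adaptor KIFAP3 drives transport into cilia. KIF3A stood at 79.3 and 77.9 in GV, 162 and 182 in IVM MII, with 239 and 208 in IVO MII, in 3 separate ranges. It rose by 1.13 ± 0.21 (adjusted p = 0.00117) and 1.51 ± 0.21 (adjusted p = 1.21e-04). KIF3B, at 29.2 and 36.5, 44.0 and 41.3, and 38.3 and 48.4, passed the test in no comparison, with 0.38 ± 0.23 and 0.40 ± 0.23 against GV (adjusted p = 0.187 and 0.151), although its MII libraries were all above GV. With library totals KIF3B passed in IVM MII (0.68). KIF3C fell from 7.35 and 6.26 in GV to 2.82 and 2.85 in IVO MII (-1.26 ± 0.30, adjusted p = 0.00333), with 5.35 and 5.63 in IVM MII between the other groups. KIF3C was higher in IVM MII than in IVO MII (0.95 ± 0.30, adjusted p = 0.0356), a call that was lost when any 1 of the 6 libraries was left out (0.92 to 1.02) and with the 4 compared libraries (0.98).

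KIFC3 (chromosome 20, 45789630 to 45895728), a minus-end motor tied to cell junctions and the Golgi apparatus, had the largest rise of all tested motors from GV to either MII group in the full fit. It was found at 4.39 and 4.19 in GV, 26.5 and 11.9 in IVM MII, with 35.9 and 29.0 in IVO MII, and the IVM MII libraries differed from each other by more than those of either other group. Against GV the rise was 4.47-fold in IVM MII (2.16 ± 0.35, adjusted p = 4.80e-04) and 7.56-fold in IVO MII (2.92 ± 0.36, adjusted p = 4.81e-05). Without IVM MII replicate 1 the first of these log2 values was 1.51 and still passed, and KIF2A then had the larger rise (1.90). The difference between the MII groups (-0.76 ± 0.33, adjusted p = 0.114) passed only without that library (-1.41). LOC107128425 covers 2.39% of the exonic bases of KIFC3.

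KIF1A, best known for carrying synaptic vesicle precursors in nerve cells, stood at 2.93 and 2.74 in GV, 3.80 and 3.04 in IVM MII, with 16.3 and 7.47 in IVO MII. Both IVO MII libraries were above the other 4 but differed from each other. It rose in IVO MII (2.06 ± 0.38, adjusted p = 6.90e-04), did not pass in IVM MII (0.27 ± 0.38, adjusted p = 0.57) and was lower in IVM MII than in IVO MII (-1.79 ± 0.37, adjusted p = 0.00512). Without IVO MII replicate 1 the rise was 1.41 and still passed, and the difference between MII groups was -1.12 and did not pass. It was also lost without IVM MII replicate 2 (-1.64).

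The remaining tested cargo motors passed in no comparison. KIF13B, a carrier of membrane proteins, had 50.2 to 84.4 CPM over the 6 libraries, with log2 fold changes of 0.18 ± 0.28 in IVM MII and 0.12 ± 0.28 in IVO MII. KIF16B, which carries early endosomes, ranged from 6.16 to 9.20 CPM and KIF13A from 2.43 to 5.84. KIF21B, a motor that also restrains microtubule growth, ranged from 5.18 to 8.76. A missed test does not show that levels were equal, since the standard errors of these 4 genes were 0.27 to 0.40 on the log2 scale.

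Motors of cilia and other roles were low and followed several patterns. KIF26B (chromosome 1, 3662928 to 4234478), an atypical kinesin that binds microtubules but lacks ATPase activity, stood at 5.24 and 8.39 in GV, 11.3 and 10.1 in IVM MII, with 1.78 and 1.90 in IVO MII. IVM MII was the highest and IVO MII the lowest group, with no overlap. This was the largest difference of any tested motor between the MII groups, 5.83-fold higher in IVM MII (2.54 ± 0.33, adjusted p = 3.11e-04). It fell in IVO MII against GV (-1.89 ± 0.33, adjusted p = 4.50e-04), and 0.66 ± 0.30 in IVM MII missed the test (adjusted p = 0.0889) but passed it with library totals (0.96).

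KIF9, a motor of the sperm and cilium axoneme, stood at 4.19 and 6.53 in GV, 10.5 and 9.95 in IVM MII, with 4.02 and 5.95 in IVO MII. Only the 2 IVM MII libraries stood above the rest. It was higher in IVM MII than in GV (0.93 ± 0.32, adjusted p = 0.0289) and than in IVO MII (1.03 ± 0.32, adjusted p = 0.0345). The first call was lost without GV replicate 1 (0.65), IVM MII replicate 1 (0.93) or IVM MII replicate 2 (0.98) and with the 10 CPM filter (0.65), the second without IVM MII replicate 1 (1.02) or 2 (1.07) or without IVO MII replicate 1 (0.78). KLHL18 overlaps 1.2% of its exonic bases.

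KIF27, a relative of the Hedgehog regulator KIF7, stood at 4.53 and 4.90 in GV, 6.55 and 7.56 in IVM MII, with 12.6 and 12.3 in IVO MII, in 3 separate ranges. Its rise in IVO MII was 2.63-fold (1.40 ± 0.27, adjusted p = 8.66e-04). In IVM MII the difference from GV of 0.58 ± 0.26 missed the test (adjusted p = 0.0866) and passed with library totals (0.87). The lower level in IVM MII than in IVO MII (-0.82 ± 0.26, adjusted p = 0.0393) was lost when any 1 of the 6 libraries was left out (-0.92 to -0.69), with library totals (-0.60), with no low-count filter (-0.80) and with the 4 compared libraries (-0.78).

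KIF24, which remodels centriolar microtubules and holds back cilia, stood at 14.8 and 12.8 in GV, 23.9 and 23.8 in IVM MII, with 23.2 and 17.1 in IVO MII. All MII libraries were above GV. Its rise passed in IVM MII (0.79 ± 0.25, adjusted p = 0.0189) and missed in IVO MII (0.55 ± 0.25, adjusted p = 0.0742), where it passed without IVO MII replicate 2 (0.76). The IVM MII call was lost without GV replicate 2 (0.69), IVM MII replicate 1 (0.82) or IVM MII replicate 2 (0.81) and with the 10 CPM filter (0.51), and 2.16% of its exonic bases overlap UBAP1. KIF19, which trims the tips of motile cilia, had 0.272 and 0.643 in GV, 1.39 and 0.483 in IVM MII, with 1.86 and 1.60 in IVO MII. Its rise in IVO MII (1.90 ± 0.61, adjusted p = 0.0188) was 2.65 without GV replicate 2 and was lost without GV replicate 1 (1.42). KIF6, at 5.67 to 9.70 CPM, passed in no comparison and its groups overlapped in all 3.

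KIF1BP (chromosome 9, 66678684 to 66713848) codes for a protein that holds some kinesins off microtubules. It was measured at 77.9 and 76.7 in GV, 145 and 148 in IVM MII, with 53.6 and 73.3 in IVO MII. Both IVM MII libraries stood far above the other 4, and both IVO MII libraries lay below GV. It was 1.89-fold higher in IVM MII than in GV (0.92 ± 0.22, adjusted p = 0.00518) and 2.30-fold higher than in IVO MII (1.20 ± 0.22, adjusted p = 0.00277), while IVO MII and GV differed by -0.28 ± 0.22 without passing the test (adjusted p = 0.291). That last value passed at -0.61 with the 10 CPM filter and turned to 0.08 with the correction for gene length.

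Added over the 40 motor rows, the level was 1465 and 1193 CPM in GV, 2237 and 2262 in IVM MII, with 3924 and 3132 in IVO MII. The 3 groups did not overlap, and the sum was not tested. Spindle motors made up 71.2% to 74.8% of the summed CPM in each library, cargo motors 22.8% to 26.0%, with 1.36% to 3.50% left for the motors of cilia and other roles. A small number of genes carried the sum, as the 3 motors with the highest level per length held 41.2% to 53.0% of the motors' summed level per length in a library.

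**Figure D3:**
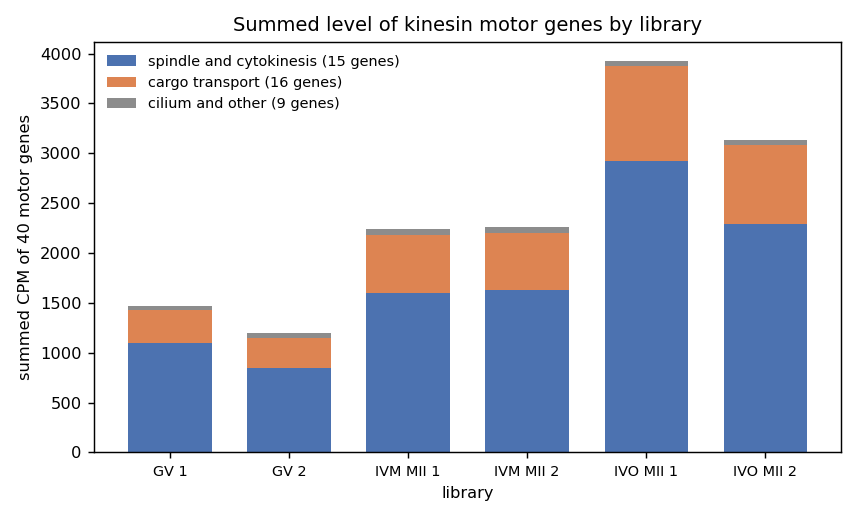
Summed level of the 40 motor genes in each of the 6 libraries, in CPM, stacked by class with the number of genes in the key. The bars run from 1193 CPM in GV replicate 2 to 3924 in IVO MII replicate 1, and the spindle class fills about the same share of each.

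Between genes, levels were compared per kilobase of exon (CPM per kb). Because Bowtie2 does not split reads over introns, a level per kb may also depend on the number of exons, which was not tested. KIF3B had 8 exon blocks and KIF15 had 35. In GV the order began with KIF23 (mean 52.1, libraries 44.8 to 59.4), KIF20B (46.6, 36.1 to 57.2), KIF3A (25.2, 25.0 to 25.4), KIF15 (22.9, 20.4 to 25.4) and KIF2C (22.1, 19.6 to 24.5). The ranges of KIF23 and KIF20B overlapped, and that of KIF15 overlapped those of KIF3A and KIF2C, which were separate from each other. In IVM MII the first 3 were again KIF23 (89.5, 89.1 to 89.9), KIF20B (73.8, 68.8 to 78.7) and KIF3A (55.1, 51.8 to 58.4), with separate ranges, followed by KIF2C (42.6) and KIF5B (41.5), whose ranges overlapped. In IVO MII KIF20B came first (153, 127 to 178), with a range that overlapped that of KIF23 (139.5, 119 to 160.2). KIF5B (79.8, 72.3 to 87.3) and KIF3A (71.6, 66.8 to 76.5) came next and overlapped each other, before KIF15 (60.3, 55.2 to 65.4). KIF11 stood at 16.1 per kb in IVO MII, behind KIF18A (24.7), KIF20A (23.1), KIF4A (22.0) and KIF14 (17.1), while by the means it was above all 4 in IVM MII and in GV.

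Ratios per length were taken within a library, between motors and the proteins they work with, or between motors of the same family or of like role. KIF5B over KLC1, a light chain that links conventional kinesin to cargo, was 5.69 and 5.34 in GV, 17.5 and 15.7 in IVM MII, with 61.5 and 65.3 in IVO MII. Its 3 ranges were far apart. KLC1 itself stood at 24.3 and 23.5 CPM, 17.8 and 17.0, and 9.93 and 7.75, and fell in IVO MII against GV (-1.44 ± 0.25, adjusted p = 4.11e-04). KIF3A over KIFAP3 was 11.7 and 14.3, 23.4 and 19.0, and 31.5 and 33.0, and KIFAP3 passed in no comparison (log2 fold changes of 0.43 ± 0.27 and 0.18 ± 0.27 against GV). KIF3A over KIF3B was 5.50 and 4.33, 7.45 and 8.94, and 12.6 and 8.73, so the MII groups overlapped. KIF3B over KIF3C, which are alternative partners of KIF3A, was 3.40 and 4.99, 7.04 and 6.28, and 11.6 and 14.5. KIF18A over KIF18B was 3.00 and 2.67 in GV, 25.2 and 42.0 in IVM MII, with 32.5 and 31.3 in IVO MII, so the MII groups overlapped.

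The other pairs each held a spindle motor. KIF11 over KIF15 was 0.476 and 0.472 in GV, 0.585 and 0.594 in IVM MII, with 0.252 and 0.286 in IVO MII, lowest in IVO MII without overlap. KIF4A over PRC1 stayed within 0.113 to 0.137 in all 6 libraries. KIF15 over TPX2 was 0.950 and 1.05 in GV, above the 0.629 to 0.837 of the MII libraries, and KIF23 over RACGAP1 was 0.989 and 0.912 in GV and 1.36 to 2.08 in MII. KIF4B over KIF4A lay between 1.27 and 1.92 and carries the uncertainty of these 2 rows. KIFAP3, TPX2, PRC1 and RACGAP1 fell outside the rule for naming genes, and these ratios were chosen with the values known and were not tested.

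**Figure D4:**
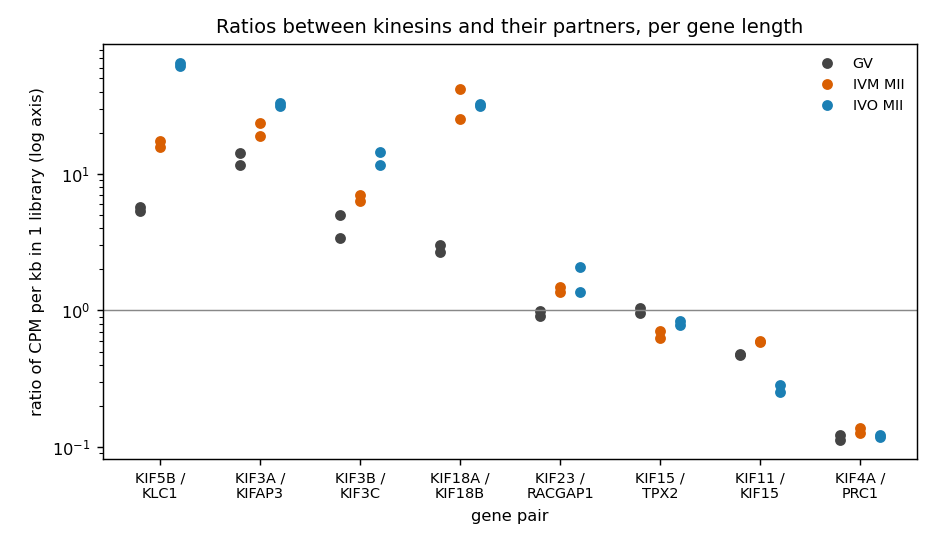
Ratios of CPM per kb between pairs of genes in each of the 6 libraries, on a log axis, with a line at a ratio of 1. KIF5B over KLC1 climbs from 5.34 to 65.3 in separate steps, KIF18A over KIF18B steps up once from GV to both MII groups, and KIF4A over PRC1 is level.

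Genes of the same machinery outside the kinesin names were read from lists. The list of light chain and adaptor genes also held CENPE, itself a motor, which is part of the list's counts and medians. Of its 25 genes, 17 were tested, and 6 rose and 2 fell in IVM MII against GV (median log2 fold change 0.43), where 50.3% of all genes were called. In IVO MII 8 rose and 4 fell (median 0.60), where 58.5% were. The mitochondrial adaptors TRAK1, TRAK2 and RHOT1, which tie KIF5B to mitochondria, were among those that rose in IVM MII, with TRAK2 at 7.01 and 5.45 CPM in GV, 16.6 and 15.3 in IVM MII, with 24.9 and 24.1 in IVO MII. CENPE, the kinesin of the kinetochore that the naming rule misses, stood at 592 and 442 CPM, 660.5 and 735, and 1609 and 1179, and per kb it was above KIF20B in every library. It rose in IVO MII against GV (1.43 ± 0.27, adjusted p = 7.60e-04) and in IVM MII it was at 0.501 of its IVO MII level (adjusted p = 0.0179), a call lost without IVM MII replicate 1 (log2 difference -0.89) or 2 (-1.07) or without IVO MII replicate 1 (-0.75). Of the list, KLC1 alone was higher in IVM MII than in IVO MII (0.98 ± 0.24, adjusted p = 0.0132), which was lost without IVM MII replicate 1 (0.98), IVM MII replicate 2 (1.01) or IVO MII replicate 2 (0.82).

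Dynein and dynactin form the motor complex that walks the other way along microtubules. DYNC1H1, the dynein heavy chain that holds the motor, had no row under its symbol and is not in the counts that follow. Of 30 genes 26 were tested, and 8 rose and 11 fell in IVM MII against GV (median -0.37), where 25.6% of all genes rose and 24.7% fell. In IVO MII 5 rose and 13 fell (median -0.62), where 28.1% and 30.5% did, and 8 were higher and 2 lower in IVM MII than in IVO MII (median 0.44), where 14.3% and 10.3% of all genes were. The light chain gene DYNLL1 fell from 304 and 344 CPM in GV to 59.0 and 52.9 in IVM MII, with 8.66 and 12.8 in IVO MII. HOOK1, of the same list, went the other way and rose 3.52-fold over GV in IVO MII (1.82 ± 0.22, adjusted p = 4.23e-05). Against the same shares of all genes, 51 of 52 spindle microtubule partners were tested, and 25 rose and 6 fell in IVM MII (median 0.62), 19 rose and 8 fell in IVO MII (median 0.35), and 7 were higher and 3 lower in IVM MII than in IVO MII (median 0.06). NUMA1, which anchors spindle poles, rose in IVO MII 3.47-fold over GV (1.80 ± 0.23, adjusted p = 6.51e-05). HAUS8, of the same list, fell 9.04-fold there (-3.18 ± 0.36, adjusted p = 2.85e-05). Whether these lists differ from the kinesins was not tested.

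Too few counts for a test were found in 9 motor rows. KIF12 and KIF2B had no count, and KIF5A, KIF7, KIF17, KIF28P, KIF1C and KIFC2 had at most 8 counts in any library. KIF21A, which carries cargo in axons, had 4 and 1 counts in GV, 0 and 0 in IVM MII, with 7 and 19 in IVO MII, which the filter on low counts left out. Where other settings let KIF21A into the test, it was called lower in IVM MII than in IVO MII with no low-count filter (adjusted p = 0.00279) and without GV replicate 1 (0.0189), GV replicate 2 (0.0162) or IVO MII replicate 1 (0.00854), but not without IVM MII replicate 1 (0.0639) or 2 (0.0617). KIF5A was called lower in IVM MII than in GV with no low-count filter (adjusted p = 0.0313).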

How the data were processed

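RNA sequencing of 6 oocyte libraries gave the data. The deposited table holds whole-number counts of fragments per gene, which the authors made with featureCounts 2.0.1 over exons and by gene, without a strand option, on a RefSeq annotation of macFas5, per the file headers. The submitters' processing notes also list fastp, FastQC, Bowtie2 and SAMtools, with no versions. No column belonged to a sample outside these 6.

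Genes were filtered with filterByExpr, which left 15815 and removed 12349. TMM factors ran from 0.903 to 1.22. The quasi-likelihood test of edgeR 4.0.16 in R 4.3.3 was fitted to all 6 libraries with groups as the terms and robust dispersions. It was two-sided, adjusted after Benjamini and Hochberg over all tested genes at 0.05, with no fold threshold. The standard errors given are the size of the log2 fold change divided by the square root of the F statistic of this test. With 3 residual degrees of freedom, p-values measure only the spread between these libraries, which may be technical, and floors of 3 counts cover counting error only. The spread of each gene was drawn towards that of other genes, with a median of 8.81 prior degrees of freedom.

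Alternatives were RLE factors, library totals, DESeq2 1.42.0, limma-voom (limma 3.58.1), no low-count filter, a stricter filter (10 CPM in at least 2 libraries), a fit of only the 4 compared libraries, a replicate block, non-robust dispersions, an offset for gene length and each library left out, which assumes that a lone library varies like the others. The motors, the classes and the partner and marker lists were chosen with earlier results of these data known. Every kinesin row could be named. Of each partner list, up to 3 genes per direction of a comparison could be named by smallest adjusted p, and marker genes where they define a cell type. Symbols of LOC rows came from RefSeq genes of T2T-MFA8v1.1, a newer assembly, which served for names alone. Figures were drawn with matplotlib 3.10.9.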

Additional observations from a re-analysis of the deposited data

Results flagged for a closer look

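In 2 of the 32 tested kinesin rows (6.25%) both libraries of one MII group lay above GV and both of the other lay below GV, as they did in 6.61% of all 15815 genes tested. KIF26B was at 5.24 and 8.39 CPM in GV, 11.3 and 10.1 in IVM MII, with 1.78 and 1.90 in IVO MII, and the log2 difference between IVM MII and IVO MII was 2.54 ± 0.33 (SE). KIF1BP was at 77.9 and 76.7 CPM in GV, 145 and 148 in IVM MII, with 53.6 and 73.3 in IVO MII, and the same difference was 1.20 ± 0.22. The genes were picked by this pattern in the same libraries, so these differences describe it and were not tested anew. The KIF26B rise in IVM MII and the KIF1BP fall in IVO MII did not pass the test against GV.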

How the results depend on the processing

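Of the 53 kinesin calls over the 3 comparisons, 31 passed under all alternatives run, 22 were lost under at least 1 and none changed sign. Leaving out a library ended from 4 calls (IVO MII replicate 2) to 17 (IVM MII replicate 2), the filter of 10 CPM ended 8 of the 43 it could test, and the 4 compared libraries ended 5. Of 43 uncalled values, 9 passed somewhere. KIF1BP between IVO MII and GV changed sign, uncalled, from -0.28 to 0.08 with the offset for gene length.

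The filter of 10 CPM, which tested 22 of the kinesin rows and 8048 genes, called 11 kinesin rows in place of 19 and 4620 genes in place of 7961 between IVM MII and GV, and 5586 genes in place of 9258 between IVO MII and GV. It moved the median gene by -0.28 and -0.33 on the log2 scale in these comparisons, and the cause was not tested. Between IVM MII and GV the motors and each of their 3 classes moved by the same -0.28. The single-gene values given above with this filter include such a shift of the whole scale. With single libraries left out, the calls between IVM MII and IVO MII ranged from 2 to 10 kinesin rows and from 2080 to 3576 genes. Library totals moved the median gene by 0.22 between the MII groups and 0.29 between IVM MII and GV, and the calls then split into 2803 higher and 894 lower (2260 and 1635 in the full fit) and into 5272 and 3004 (4053 and 3908). The spindle median between the MII groups was then -0.24 in place of -0.46, and the cargo median turned from -0.02 to 0.19.

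Replicate numbers share no stated origin. The correlations of same-numbered deviations were -0.144 (GV and IVM MII), 0.178 (GV and IVO MII) and -0.114 (IVM MII and IVO MII). With the replicate block the kinesin rows called were 11, 20 and 21 for IVM MII against IVO MII, IVM MII against GV and IVO MII against GV, in place of 12, 19 and 22. The block ended the calls of KIF27 between the MII groups (-0.82, adjusted p = 0.0515) and of KIFC1 between IVO MII and GV (0.88, adjusted p = 0.0512), and KIF20B passed between IVM MII and GV (0.71, adjusted p = 0.0454). Among the kinesins tested it changed no other call. KIF19 and KIF5C, both with low counts, had the widest standard errors among the kinesins, 0.57 to 0.63.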

Other observations

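Some kinesin genes were not reached by the search on names. A row that carries only a LOC identifier is KIF26A in the RefSeq gene table, the paralog of KIF26B, and held 22 and 19 counts in GV, 64 and 39 in IVM MII, with 33 and 55 in IVO MII. KIF1B and KIF25, which the RefSeq table lists, had no row under these names in the gene counts, so no level can be given for them.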
